A study of Mus musculus with 8 samples.

Results

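The inhibitor of apoptosis (IAP) and NAIP genes were followed in mouse intestinal organoids cultured with or without RANKL. These genes encode proteins with a BIR domain, and the set was completed by Diablo, which encodes an antagonist of IAP proteins. The 10 genes were taken by symbol from the 54532 genes of the count table, and were Birc2, Birc3, Birc5, Birc6, Xiap, Naip1, Naip2, Naip5, Naip6 and Diablo. The rule used gene names and no measured values.

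The comparison held 8 libraries, 4 from control organoids and 4 from organoids treated with RANKL, the ligand of the TNF family receptor RANK, and the comparison asked which genes respond to RANK stimulation. Small intestinal organoids of this kind are epithelial cultures grown from crypts in Matrigel with EGF, NOGGIN and R-spondin, and they hold no stroma, vessels or immune cells of the gut wall. The study kept its mouse lines on a C57BL/6J background and describes organoids stimulated in this way as wild type. Animals, RANKL dose and time are not given for these libraries in the sources used here, and the labels do not say whether replicates came from separate cultures or animals, so p-values measure only the spread between these samples. Reads were single, 50 bases long and taken near the 3′ end of polyadenylated transcripts, so counts do not scale with gene length.

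IAP proteins were named for their ability to keep cells alive. XIAP binds and blocks caspases directly, whereas the cellular IAPs encoded by Birc2 and Birc3 are ubiquitin ligases that act in the complexes below TNF family receptors, where they feed the canonical NF-κB pathway and restrain NIK, the kinase of the non-canonical pathway. Birc3 is itself a well-known NF-κB target gene. SMAC, the product of Diablo, leaves the mitochondria during apoptosis and displaces IAPs from caspases. Survivin, the product of Birc5, works mainly in cell division as part of the chromosomal passenger complex, and BIRC6 is a very large ubiquitin-conjugating enzyme. NAIP proteins carry BIR domains too, but serve as cytosolic sensors of bacterial flagellin and type III secretion proteins that assemble the NLRC4 inflammasome, which in the gut acts in epithelial cells.

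All 10 genes lie in the nuclear genome as protein-coding genes, and 6 of them sit in tandem copies (GRCm38, GENCODE M21). Birc2 (chr9:7818227-7837064) and Birc3 (chr9:7848699-7873186) lie head to tail on the minus strand, 11634 bases apart. Naip2, Naip5, Naip6 and Naip1 follow each other on the minus strand of chromosome 13 within 308807 bases (chr13:100144063-100452869). Birc5 (chr11:117849251-117855743) and Birc6 (chr17:74528295-74703356) are on the plus strand, as is Xiap (chrX:42059679-42109656), whereas Diablo (chr5:123509765-123524176) is on the minus strand.

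The promoter windows of the members that the comparison below turns on are printed from RefSeq (GRCm38.p6), each running from 250 bases before to 50 bases after an annotated start. All 10 genes were matched by symbol. Birc2 and Birc3 are shown as the neighbouring pair with higher counts under RANKL, and Birc5 as a member whose count did not pass the test. Capitals mark matches to the 10-letter κB consensus on either strand.

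Birc3, chr9:7873121-7873420, minus strand: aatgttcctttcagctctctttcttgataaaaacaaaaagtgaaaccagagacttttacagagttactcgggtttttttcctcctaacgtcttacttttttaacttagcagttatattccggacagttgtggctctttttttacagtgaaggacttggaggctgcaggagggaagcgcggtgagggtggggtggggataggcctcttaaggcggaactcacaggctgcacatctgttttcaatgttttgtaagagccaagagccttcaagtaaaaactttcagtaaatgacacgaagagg
Birc2, chr9:7837008-7837307, minus strand: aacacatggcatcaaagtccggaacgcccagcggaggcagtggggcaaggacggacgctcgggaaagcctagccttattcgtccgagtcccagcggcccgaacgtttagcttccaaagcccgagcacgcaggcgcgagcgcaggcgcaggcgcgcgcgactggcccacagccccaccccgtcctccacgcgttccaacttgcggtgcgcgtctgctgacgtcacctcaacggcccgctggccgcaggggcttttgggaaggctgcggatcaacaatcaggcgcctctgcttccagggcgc
Birc5, chr11:117848987-117849286, plus strand: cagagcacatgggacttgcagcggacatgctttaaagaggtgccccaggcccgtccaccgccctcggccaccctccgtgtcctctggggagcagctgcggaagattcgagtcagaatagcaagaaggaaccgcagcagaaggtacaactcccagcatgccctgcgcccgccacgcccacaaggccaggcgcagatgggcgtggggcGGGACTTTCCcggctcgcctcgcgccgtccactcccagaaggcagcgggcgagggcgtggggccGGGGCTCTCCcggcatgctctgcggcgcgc

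The Birc3 window and both Birc2 windows hold no match, which says only that these letters are absent from these bases. Birc5 has 2 matches, GGGACTTTCC from -44 to -35 relative to the start and GGGGCTCTCC from 20 to 29. Of all 32851 promoter windows in the table, 8.46% hold the consensus. Elsewhere among the members it was found in a Xiap window and in the Naip5 window.

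Naip2 and Naip5 are shown next because their windows share the longest run of letters among the Naip genes, although the fitted changes of these genes lay on different sides of the threshold. Capitals here mark that run, 34 bases long, which only these 2 of all windows hold.

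Naip2, chr13:100202073-100202372, minus strand: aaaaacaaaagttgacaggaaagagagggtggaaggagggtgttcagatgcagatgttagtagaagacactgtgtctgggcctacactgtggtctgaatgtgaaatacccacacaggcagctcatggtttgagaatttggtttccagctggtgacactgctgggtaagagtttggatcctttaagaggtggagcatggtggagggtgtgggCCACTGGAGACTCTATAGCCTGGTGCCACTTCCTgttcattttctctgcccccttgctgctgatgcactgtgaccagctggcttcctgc
Naip5, chr13:100247287-100247586, minus strand: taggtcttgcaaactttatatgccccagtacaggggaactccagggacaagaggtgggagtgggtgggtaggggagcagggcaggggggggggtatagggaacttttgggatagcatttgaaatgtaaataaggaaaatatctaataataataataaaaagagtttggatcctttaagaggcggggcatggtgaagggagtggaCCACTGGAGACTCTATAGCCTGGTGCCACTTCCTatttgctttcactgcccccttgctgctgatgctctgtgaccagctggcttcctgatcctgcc

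The run lies at -39 in Naip2 and at -46 in Naip5. Naip1 shares 14 bases at most with Naip5 and 11 with Naip2, and Naip6 shares 9 at most with any of the others.

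Total counts ran from 583663 to 7807298 per library, with a single count worth between 0.127 and 1.72 CPM (counts relative to the library total, scaled by TMM factors). Control replicate 4 and RANKL replicate 1 were the shallowest. The median total was 3911808 in control and 1613410 in RANKL libraries, and control replicates 1, 2 and 3 were deeper than every RANKL library. Depth as a covariate therefore overlaps in part with the treatment. Spearman correlations between libraries were 0.9579 to 0.9861 within a group and 0.9106 to 0.949 between groups. Epithelial markers summed to 6002 to 6940 CPM in control and 6023 to 6467 CPM in RANKL libraries. Cdh1 led these sums, at a mean of 3472 CPM in control and 3486 CPM in RANKL libraries. Of the 8 genes 2 were lower, Krt18 (log2 fold change -0.70) and Krt19 (-0.30), beside 12.4% of all genes tested, and 6 did not pass the test. Defining markers of T cells (Cd3e), fibroblasts (Dcn) and endothelium (Cdh5, Kdr) were at 0 in every library. Immune markers summed to 3.44 to 10.8 CPM in control and 4.82 to 14.5 CPM in RANKL libraries, and endothelial markers to at most 3.44 CPM in any library. Stromal markers summed to 4.33 to 20.6 and 21.3 to 26.6 CPM, and Pdgfrb, the 1 stromal gene that could be tested, was higher with RANKL. The 7 M cell markers summed to 50.3 to 59.0 CPM in control and 1834 to 2077 CPM in RANKL libraries, led by Spib, and all 6 that could be tested were higher, while Gp2 was at 0 throughout. In the stem cell list Lgr5, Smoc2 and Axin2 were lower and Ascl2 was higher. Olfm4, the most abundant of that list (log2 fold change -0.18), and Rgmb (-0.30) did not pass the test. What part these marker genes had in the members' values was not tested. Bulk counts cannot tell fewer cells of a type from less RNA per cell.

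Of the 10 genes, 7 passed the test of RANKL against control, by edgeR's quasi-likelihood test with Benjamini-Hochberg adjustment over 9971 genes at 0.05. The background was high, since 25.9% of all genes tested passed it. Birc2, Birc3 and Diablo were higher, against 13.6% of all genes. Xiap, Naip1, Naip5 and Naip6 were lower, against 12.4%. Birc5, Birc6 and Naip2 did not pass. The 4 values of one group all lay above those of the other for 3 genes that were higher with RANKL (13.1% of all genes) and for 3 that were lower (11.5%), the latter being Birc6, Naip1 and Naip6. The median log2 fold change of the members was -0.17, beside 0.00 over all genes tested.

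**Figure D1:**
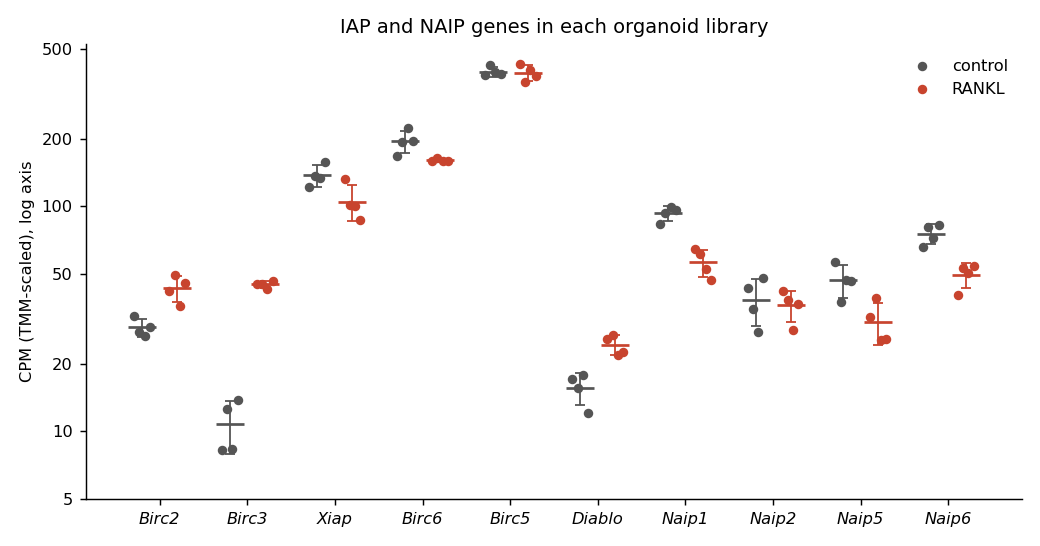
CPM (log axis) of each of the 10 genes in the 4 control and 4 RANKL libraries, with 1 point per library and the mean and SD of each group as bars. Birc3 moves from 8.28 to 13.8 CPM in control to 42.8 to 46.7 CPM in RANKL libraries, while the Birc5 points of both groups lie between 357.9 and 432.7 CPM.

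Birc3, which encodes the cellular IAP cIAP2, showed the largest change of the set. Its level was 8.28, 12.6, 8.36 and 13.8 CPM in control replicates 1 to 4 and 45.2, 45.4, 42.8 and 46.7 CPM in the RANKL replicates. Every RANKL library lay far above every control library, and the RANKL libraries were close to each other. Birc3 rose 4.58-fold (95% interval 3.50 to 5.99), with a log2 fold change of 2.19 ± 0.19 (SE, n = 4 and 4) and an adjusted p of 1.43e-10 by edgeR. The value rests on 153 control and 261 RANKL counts, of which 8 were in control replicate 4.

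Birc2, which encodes cIAP1, moved in the same direction by a smaller amount. Its level was 32.7, 27.6, 26.6 and 29.2 CPM in the controls and 42.0, 49.6, 35.98 and 45.6 CPM with RANKL. The groups did not overlap, but the highest control (replicate 1) and the lowest RANKL library (replicate 3) were close. Birc2 rose by 0.56 ± 0.16 on the log2 scale (edgeR, adjusted p = 0.00785), which is 1.48-fold with an interval of 1.18 to 1.84.

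The balance between these neighbouring genes shifted. Within the counts of Birc2 and Birc3 together, Birc3 held 26.9% ± 5.76 in control and 51.1% ± 2.70 in RANKL libraries (SD, n = 4). The difference of 24.3 percentage points had p = 0.0286 in an exact two-sided permutation test, the smallest that the 70 assignments of 4 and 4 libraries can give. The share ran from 20.2 to 32.0% in control and from 47.8 to 54.3% in RANKL libraries. Control replicate 4 rests on 25 counts, and its 95% Wilson interval of 17.2 to 51.6% (counting error only) reached into the RANKL range.

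Xiap, the direct caspase inhibitor, went the other way. It measured 122.1, 136.3, 133.8 and 158.2 CPM in the controls and 132.4, 101.2, 100.7 and 86.8 CPM with RANKL. RANKL replicate 1, a shallow library, lay inside the control range and the other RANKL libraries lay below it. The highest control value came from control replicate 4, the shallowest library. Xiap fell by 0.40 ± 0.12 on the log2 scale (edgeR, adjusted p = 0.0158). The call was lost without RANKL replicate 3 (adjusted p = 0.0502) and without RANKL replicate 4 (adjusted p = 0.102). Without control replicate 4 the call held at a log2 fold change of -0.35 (adjusted p = 0.0388).

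Taken as a pool, the transcripts of Birc2, Birc3 and Xiap summed to 177.4 ± 16.8 CPM in control and 193.5 ± 19.1 CPM in RANKL libraries (SD, n = 4), with overlapping ranges of 163.1 to 201.2 and 179.1 to 219.6 CPM. The make-up of the pool differed more than its size. Xiap made up 77.5% of it in control and 54.1% in RANKL libraries, whereas Birc3 went from 6.002% to 23.4% and Birc2 from 16.5% to 22.5%. The groups did not overlap for the Xiap and Birc3 shares. For Birc2 the highest control share (20.1%) lay above the lowest RANKL share (19.1%).

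**Figure D2:**
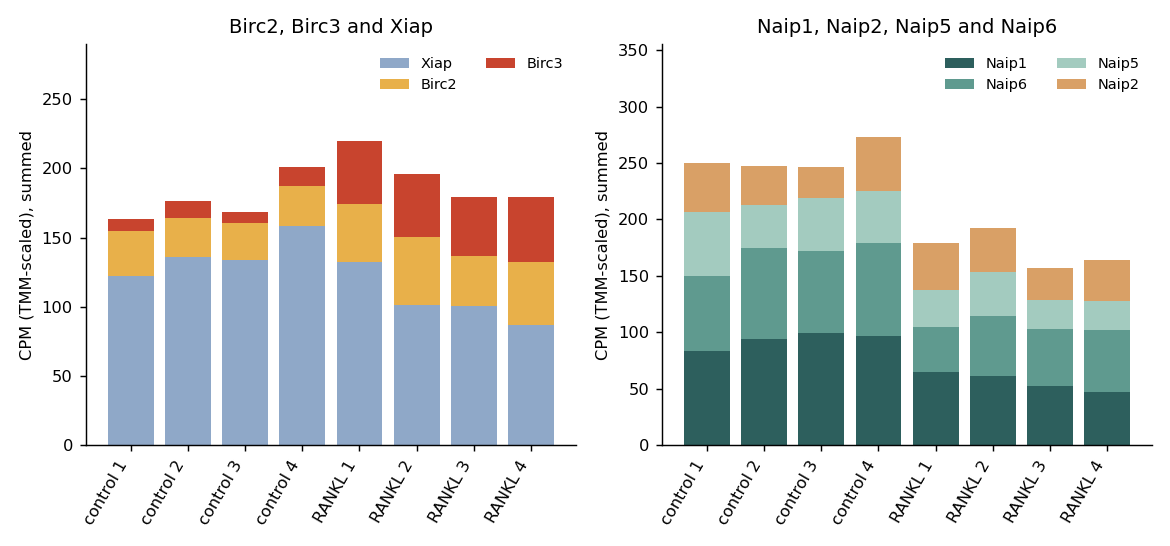
Stacked CPM per library of Birc2, Birc3 and Xiap (left) and of the 4 Naip genes (right), for control replicates 1 to 4 and RANKL replicates 1 to 4. On the left the Birc3 segment widens from at most 13.8 CPM to at least 42.8 CPM under sums that overlap between groups, and on the right every RANKL sum (157.0 to 192.0 CPM) is below every control sum (246.8 to 273.4 CPM).

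Diablo, whose product SMAC opposes these IAPs, was higher with RANKL on low counts. It measured 17.1, 15.6, 17.7 and 12.04 CPM in the controls and 25.8, 26.8, 21.9 and 22.5 CPM with RANKL. The groups did not overlap. Diablo rose by 0.54 ± 0.19 on the log2 scale (edgeR, adjusted p = 0.0349), from 269 control and 138 RANKL counts. DESeq2 did not call it (adjusted p = 0.141), nor did the fits without control replicate 2 or without RANKL replicate 1, 2 or 4 (adjusted p between 0.0621 and 0.117). The gene shares same-strand exons with Gm49027, and 41.2% of the 50-base words in the ends of its coding transcripts occur in Gm49027 or B3gnt4. Words were matched on both strands, whereas B3gnt4 lies antisense and counting was strand-specific, so 41.2% can overstate the overlap. The share was 0.00% in the transcript of 2588 bases and 45.0% to 89.1% in the others. Its reads are therefore less certain than those of the other members, to a degree that was not measured. The pooled Birc2, Birc3 and Xiap level per unit of Diablo had a mean of 11.8 in control and 7.99 in RANKL libraries. The control values ran from 9.51 to 16.7, and every RANKL value lay below them. The highest was that of control replicate 4, where Diablo had 7 counts, and it raises the control mean. The ratio was not tested, and it shares the uncertainty of the Diablo reads.

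Birc6, an IAP that can ubiquitinate SMAC and caspases, gave 167.9, 192.7, 222.8 and 196.1 CPM in the controls and 159.8, 163.8, 160.1 and 159.8 CPM with RANKL. The RANKL libraries were within a few CPM of each other and below every control, though only just below control replicate 1. The fitted log2 fold change of -0.27 ± 0.11 did not pass (edgeR, adjusted p = 0.0592). It passed when control replicate 1 was left out (adjusted p = 0.0175). Gm26749 lies antisense to its exons, and the study counted in a strand-specific way.

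Birc5 was the most abundant member in both groups. Survivin transcripts measured 383.2, 427.7, 396.9 and 386.9 CPM in control and 432.7, 357.9, 406.3 and 380.6 CPM in RANKL libraries. The groups overlapped fully, with the highest and the lowest value both under RANKL. The log2 fold change of -0.02 had a 95% interval of -0.22 to 0.17 (edgeR, adjusted p = 0.885), on 6395 and 2260 counts.

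None of the 3 other genes of the chromosomal passenger complex passed the test either. Cdca8, encoding borealin, gave a log2 fold change of 0.05, Incenp -0.26 (adjusted p = 0.0578) and Aurkb -0.76 (adjusted p = 0.0934, with 26 RANKL counts), all by edgeR. At an adjusted p of 0.05, 5 of the 22 mitotic genes passed, a share no higher than the 25.9% of all genes tested. Mki67, a marker of cycling cells (log2 fold change -0.37), Kif11, a spindle motor (-0.59), and the checkpoint kinases Bub1b (-0.52) and Ttk (-0.46) were lower, and Aspm, a spindle pole gene, was higher (0.39). The list's median was -0.13. Aspm lost its call in 9 of 16 alternative fits and Bub1b in 8 of 15. Mki67 lost it without control replicate 4 or RANKL replicate 1 or 2 (adjusted p between 0.0547 and 0.0819), and Kif11 by DESeq2 (adjusted p = 0.0687) and with depth as a covariate (adjusted p = 0.105).

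**Figure D3:**
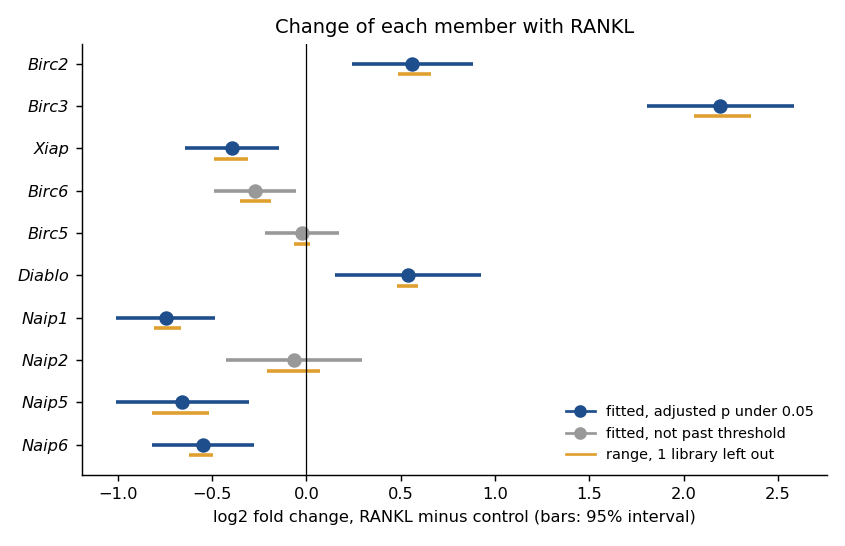
Log2 fold change of each member, RANKL minus control, with its 95% interval (upper bars, blue where the edgeR adjusted p was under 0.05, grey otherwise) and the range of the estimate when 1 library at a time was left out (lower bars). Birc3 stands at 2.19, Birc2 and Diablo near 0.5, Birc5 and Naip2 at -0.02 and -0.07, and Xiap, Naip1, Naip5 and Naip6 between -0.75 and -0.40.

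Of the Naip genes, Naip1, Naip5 and Naip6 fell and Naip2 did not pass the test. The 4 genes summed to 254.5 ± 12.7 CPM in control and 173.1 ± 15.6 CPM in RANKL libraries (SD, n = 4), and these ranges were far apart. Naip1, a sensor of the needle protein of type III secretion systems, contributed most in control libraries.

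Naip1 measured 83.6, 93.7, 99.3 and 96.3 CPM in the controls and 64.6, 61.3, 52.7 and 47.2 CPM with RANKL. No RANKL library reached the lowest control. Naip1 fell by 0.75 ± 0.13 on the log2 scale (edgeR, adjusted p = 4.51e-05), a decrease to 0.596 of the control level.

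Naip6, one of the flagellin sensors, measured 66.3, 81.3, 72.7 and 82.5 CPM in the controls and 40.4, 53.0, 50.6 and 54.4 CPM with RANKL. Again the groups were apart. Naip6 fell by 0.55 ± 0.13 (log2; edgeR, adjusted p = 0.00221).

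The other flagellin sensor, Naip5, gave 56.7, 37.6, 47.1 and 46.4 CPM in the controls and 32.3, 39.2, 25.6 and 25.8 CPM with RANKL. RANKL replicate 2 lay above control replicate 2, so the groups overlapped by that pair. Naip5 fell by 0.66 ± 0.17 (log2; edgeR, adjusted p = 0.00472). When library depth was added to the model as a covariate, the adjusted p was 0.0751.

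Naip2, a sensor of the inner rod of type III secretion systems, measured 43.5, 34.9, 27.6 and 48.2 CPM in the controls and 42.0, 38.5, 28.2 and 36.8 CPM with RANKL. The RANKL libraries lay inside the control range. Its log2 fold change of -0.07 had a 95% interval of -0.43 to 0.29 (edgeR, adjusted p = 0.823), which includes a decrease of the size fitted for Xiap. Whether Naip2 behaved differently from its neighbours was tested as its share of paired counts, a test chosen after these values had been seen. Its share beside Naip1 was 29.1% in control and 39.2% in RANKL libraries, a difference of 10.04 points with an exact permutation p of 0.0286 (0.0857 adjusted over 3 pairs). Beside Naip5 the difference was 9.45 points (exact p = 0.0571, adjusted 0.0857) and beside Naip6 8.80 points (exact p = 0.114, adjusted 0.114). None passed the correction. The p of 0.0286 is the smallest that 70 assignments can give, so a single pair at that value could not pass. The shares beside Naip1 did not overlap, at 21.8 to 34.2% in control and 34.8 to 43.8% in RANKL libraries. A difference between Naip2 and the other Naip genes was thus neither shown nor excluded.

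Reads of 50 bases can be shared between such similar genes. In the last 500 bases of the annotated coding transcripts, no 50-base word of Naip6 and 0.162% of those of Naip2 occur in another gene. For Naip1, 30.5% do, all in the 1 coding transcript of 1968 bases that ends within the gene, and 0.00% in the long transcripts of 5464 and 5361 bases. For Naip5 the 7.32% of shared words occur in genes outside the cluster. Naip3, annotated as an unprocessed pseudogene between Naip6 and Naip1, shares 33.3% of its words with the other copies. It was lower with RANKL (log2 fold change -1.64 ± 0.36, edgeR, adjusted p = 0.000913), at 9.80, 13.1, 19.8 and 6.88 CPM in the controls and 0.00, 4.13, 5.74 and 4.39 CPM with RANKL. RANKL replicate 1 had no Naip3 count, which at its depth allows up to 4.84 CPM.

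Among the remaining BIR-domain genes Birc7 was at 0 in every library, and Naip4 and Naip7 were not analysed here.

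Genes around both clusters were taken up to 300 kb away. Of the 5 genes tested around Birc2 and Birc3, Tmem123, a membrane protein gene, was higher too (0.77 ± 0.22, edgeR, adjusted p = 0.00859) with overlapping groups, but not with depth as a covariate (adjusted p = 0.237). Mmp7, a Paneth cell protease gene, gave 0.21 and Yap1, a Hippo pathway coactivator gene, 0.32, and neither passed. Around the Naip cluster 15 genes were tested. Bdp1, a subunit of a polymerase III factor, was lower (-0.39), whereas Marveld2, encoding the tight junction protein tricellulin, and Ccdc125 were higher (0.45 and 1.07). Marveld2 lost its call in 6 of 16 alternative fits, Bdp1 in 4 of 16 and Ccdc125 in 3 of 15, in each case among others when single libraries were left out (control replicate 1 and RANKL replicates 1 and 3 for Marveld2, control replicate 3 and RANKL replicate 1 for Bdp1, RANKL replicates 2 and 4 for Ccdc125). Serf1, Smn1, Gtf2h2, Ocln, Rad17, Ak6 and Cdk7 did not pass. Of the 15 tested genes 5 were lower, beside 12.4% of all genes tested, and 4 of these 5 were Naip genes or Naip3. Serf1 (-0.44, edgeR, adjusted p = 0.0636) and Ocln (-0.27, adjusted p = 0.196) lay lower with RANKL without overlap of the groups. Smn1 (0.30, adjusted p = 0.0746) lay higher without overlap. Serf1 passed with the replicate block (adjusted p = 0.0383) and without control replicate 3 (adjusted p = 0.0364).

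**Figure D4:**
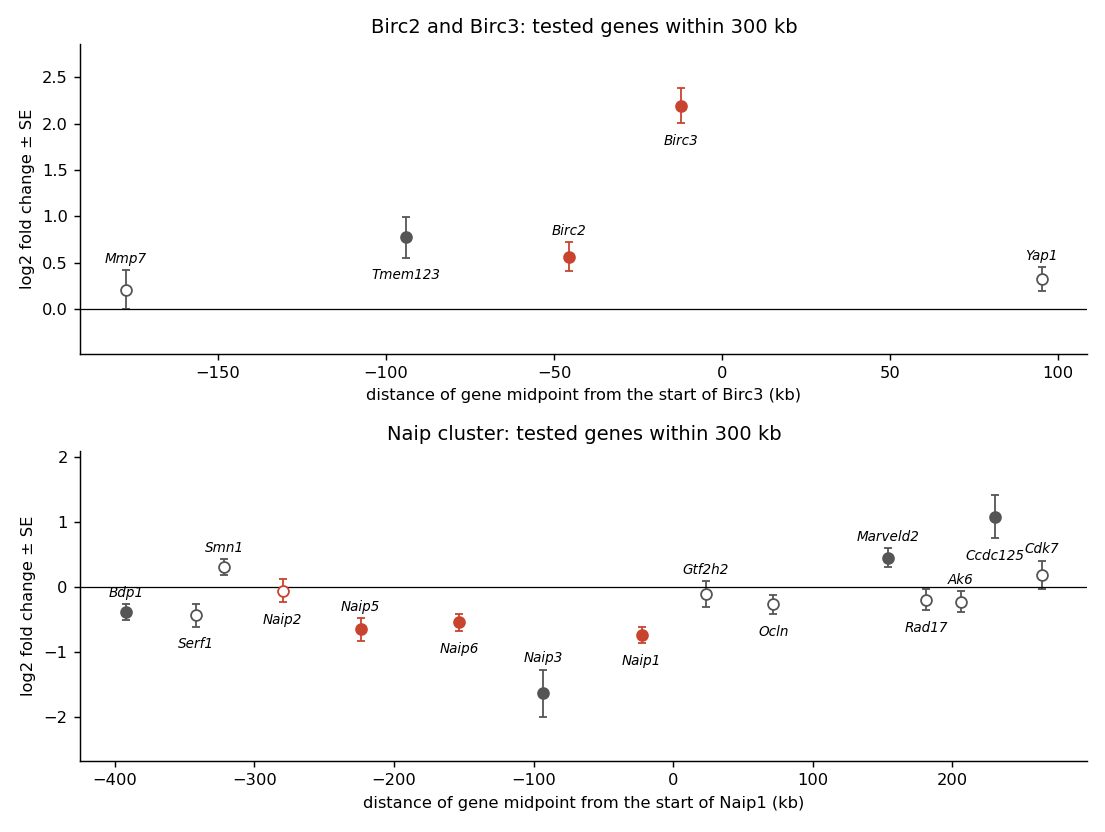
Log2 fold change ± SE of the tested genes around Birc2 and Birc3 (top) and around the Naip cluster (bottom), against the distance of each gene's midpoint from the start of Birc3 or Naip1 in kb, with members in red and filled symbols for an edgeR adjusted p under 0.05. Birc3 (2.19) stands above all 4 of its tested neighbours, and Naip1, Naip3, Naip5 and Naip6 lie between -1.64 and -0.55.

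Among the signalling partners of the cellular IAPs, all 9 NF-κB subunits and inhibitors rose, beside 13.6% of all genes tested. Their median log2 fold change was 2.83. Relb and Nfkb2, the subunits of the non-canonical arm, rose by 3.32 and 3.48, the inhibitor gene Nfkbia by 3.24, Nfkbie by 3.31 and the IκB family coactivator Bcl3 by 2.83. The Nfkbie value rests on 18 control counts (0.797 CPM), beside 4229 for Nfkbia. This list overlaps with what the study reports for these samples and is not independent evidence of its direction.

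In the TNF receptor and TRAF complexes 10 of 21 tested genes were higher and 1 was lower, with a median of 0.45. Of all genes tested, 13.6% were higher and 12.4% lower. Tnfrsf11a, which encodes RANK itself, rose from 31.0 to 155.6 CPM (2.39). Tnfaip3, encoding the deubiquitinase A20, rose by 3.05, Map3k14, encoding NIK, by 1.73, and Ripk3, a kinase of necroptosis, by 1.04. The Tnfaip3 value rests on 31 control counts (1.34 CPM). Traf2 (0.87) and Traf3 (1.06), the adaptors that bring cIAPs to NIK, were higher as well, and Tab2, an adaptor of TAK1, was lower (-0.34).

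Of the 6 tested antagonists and binding partners of IAPs, 2 were higher, beside 13.6% of all genes tested, and none was lower. Htra2, a mitochondrial protease that also antagonises IAPs, rose from 12.4 to 33.1 CPM (1.22, edgeR, adjusted p = 1.70e-05). Map1lc3b, an autophagy gene, was higher by 0.35, a call lost without the filter on low counts (adjusted p = 0.0994) and without RANKL replicate 2, 3 or 4 (adjusted p between 0.0515 and 0.0753). The other 4 (Gspt1, Uba6, Tab1 and Commd1) did not pass, and 5 genes were too low to test. One of them was Nod2, with 0 counts in all 4 controls and 20 in the RANKL libraries.

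None of the 10 caspase and apoptosome genes was higher, where 13.6% of all genes tested were. Lower genes made up 12.4% of all genes tested, so so few calls among 10 genes say little about this list. The pore-forming effectors Bax (-0.63, edgeR, adjusted p = 0.00424) and Bak1 (-0.31, adjusted p = 0.0478) were lower with overlapping groups. Bak1 lost its call in 9 of 16 alternative fits, and without control replicate 3 its log2 fold change was -0.18 (adjusted p = 0.215). For Bax the log2 fold change was -0.32 without that library (adjusted p = 0.0351), and the call was lost by DESeq2 (adjusted p = 0.141) and with depth as a covariate (adjusted p = 0.0584).

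Downstream of the NAIP sensors, Nlrc4 measured 27.1 ± 4.52 CPM in control and 33.0 ± 4.53 CPM in RANKL libraries (0.19, edgeR, adjusted p = 0.46) and did not pass the test. Among other inflammasome genes, Casp4, which senses cytosolic lipopolysaccharide itself and not through NAIP proteins, rose by 1.57. Gsdmd, the pore-forming substrate of inflammatory caspases, rose by 1.02. The adaptor gene Pycard was lower (-0.26), a call lost in 9 of 16 alternative fits. Casp1 (0.36, adjusted p = 0.0507) and Il18 (-0.38, adjusted p = 0.0545) missed the threshold. The enterocyte markers, of which 8 of 9 did not pass and Apoa1 was higher, had a median log2 fold change of 0.00.

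**Figure D5:**
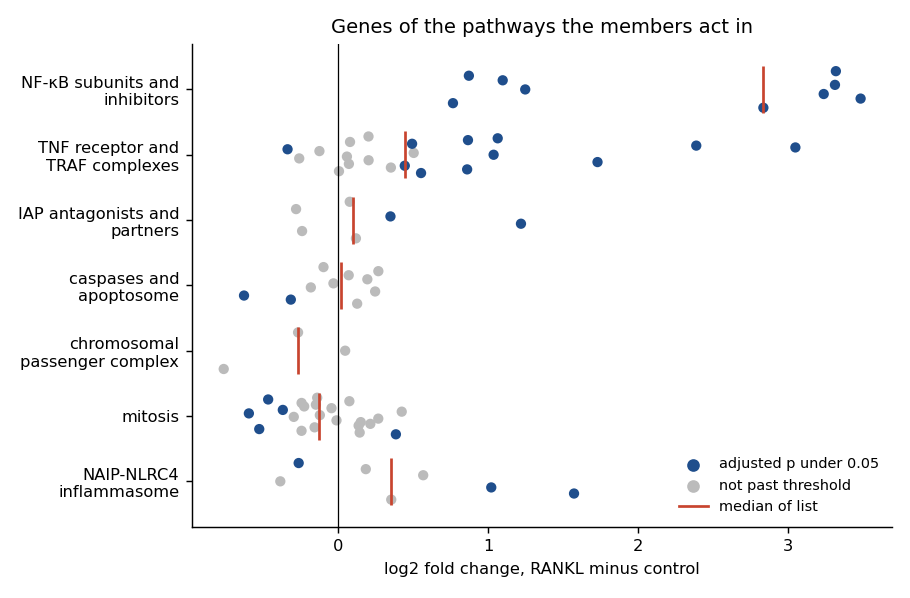
Log2 fold change, RANKL minus control, of every tested gene in 7 lists of pathway partners (1 point per gene, blue where the edgeR adjusted p was under 0.05), with the median of each list as a red line. The NF-κB list lies wholly above 0 with a median of 2.83, while the caspase list has a median of 0.02 and the mitosis list of -0.13.

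The order of the members by level also differed between groups. On the CPM scale of 3′ counts, which needs no length correction, Birc5, Birc6, Xiap, Naip1 and Naip6 followed each other in control libraries with no overlap between neighbours in that order. Naip5, Naip2 and Birc2 came next, below Naip6 and overlapping in turn. Diablo and Birc3 lay below Birc2 and overlapped with each other. The highest mean was 37.1 times the lowest. In RANKL libraries Birc5, Birc6 and Xiap led in the same order. All members below them, from Naip1 to Diablo, overlapped with their neighbour in the order, and Birc3 stood between Naip6 and Birc2 by mean.

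The genes most like a member were named by Pearson correlation of log2 (CPM + 1) over the 8 libraries, compared with 9970 genes. They are a description, since the libraries fall into both groups and share their depth. Birc3 was closest to Pik3cd, a leukocyte PI3-kinase subunit gene (0.998), Marcksl1 (0.994), which is in the M cell list, and Prnp, the prion protein gene (0.990). Pik3cd averaged 1.02 CPM in control libraries, below the 5.16 CPM that 3 counts are worth in control replicate 4. Naip5 was closest to Egfl7 (0.957), Rfwd3 (0.945) and Ubb (0.941), all lower with RANKL by edgeR. Ubb lost that call in 8 of 16 alternative fits, and Egfl7 without RANKL replicate 4 (adjusted p = 0.0507). Birc5 was closest to Map4k5 (0.980), and Fam45a (0.922) was also among its nearest genes. Neither passed the test, and both were low, at 7.26 and 8.39 CPM in control libraries.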

How the data were processed

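The 8 libraries were labelled as control or RANKL-treated organoids, numbered 1 to 4 in each group. The deposited values are raw counts per gene. The authors trimmed the reads, removed abundant sequences, aligned the rest to GRCm38 (mm10) with STAR and counted strand-specifically on Ensembl genes with featureCounts. No molecular identifiers are mentioned, so PCR copies count as reads and intervals and floors cover counting error only.

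The counts were tested here with edgeR 4.0.16 (R 4.3.3), with TMM factors, the edgeR filter on low counts, the quasi-likelihood test and Benjamini-Hochberg adjustment over 9971 genes. CPM values are TMM-scaled. The steps were tested on simulated data. Alternatives used DESeq2 1.42.0 and limma 3.58.1. Shares of paired counts were compared with exact two-sided permutation tests (scipy 1.17.1). Annotation came from GENCODE M21 on the same build, and promoters from RefSeq. No 2 libraries agreed within counting noise (lowest chi-square per degree of freedom within a group 1.25).

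The members, pathway lists and marker lists were chosen with earlier results of these data known, and the study itself singled out Birc2, Birc3 and Tnfaip3 on these samples. Named were the 10 members, up to 5 called genes per pathway list with the largest change at a mean of at least 5 CPM, tested genes within 300 kb of a cluster, and the 3 genes most correlated with Birc3, Birc5 and Naip5, of which 1 is not reported here. Other genes, such as Nod2, Casp1, Il18 and those not passing the test, were named after their values were seen. Marker lists not described in the text (Paneth, goblet, enteroendocrine and tuft cells) had 1, 1, 3 and 0 genes past the threshold, of 7, 7, 7 and 1 tested.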

Additional observations from a re-analysis of the deposited data

Results flagged for a closer look

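Of 22 sets of 4 values tested for a sample far from the others, 1 stood out, where chance gives about 1 in 20 (1.1 here). Birc6 in RANKL replicate 2 measured 163.8 CPM, and the next of the RANKL libraries 160.1 CPM, a gap of 0.929 of the group's range. The RANKL libraries were so close together for this gene that the gap is small on the CPM scale.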

How the results depend on the processing

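Birc2, Birc3, Birc5, Naip1, Naip2 and Naip6 kept their side of the threshold in every alternative fit run (DESeq2 size factors, library totals alone, DESeq2, limma-voom, other filters, the replicate block, the depth covariate and each library left out), with the exception that Birc3 and Diablo could not be tested with at least 10 counts in every library. Birc6 passed with the replicate block (adjusted p = 0.0442) and without control replicate 1. Xiap, Naip5 and Diablo lost calls as given above, and Diablo also without the filter on low counts (adjusted p = 0.123) and with the depth covariate (adjusted p = 0.094). The cause was not tested. Between 5 and 8 members passed in these fits. At an adjusted p of 0.01, 1636 genes passed, 929 higher and 707 lower. With a fold of at least 2, 577 genes passed, and 1 member, Birc3.

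The values showed little pairing by replicate number. Same-numbered libraries correlated at -0.01, -0.03, 0.10 and 0.04 after removing group means, and only control replicates 3 and 4 correlated best with their own number. With few and partly shallow libraries, these correlations cannot tell whether same-numbered libraries shared a culture or animal. With the replicate block 2610 genes and 8 members passed, and the Birc3 share difference stayed at 24.3 points with an exact p of 0.125, the smallest that 4 pairs allow. Over 45 other named genes, 705 values under alternatives held 627 that kept their call, 69 that lost it, 5 that gained it, 4 that moved and 0 that reversed. Control replicate 4, with 583663 counts, limits the low members most.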
